A study of Mus musculus with 18 samples.

Results

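The comparison described here sets AhR-reconstituted mouse hepatocytes against AhR-null mouse hepatocytes while both were held in suspension, without attachment to a surface, for 8 h. It rests on 6 of the 18 arrays of the study, 3 of each line. A probe was taken in where at least 3 of the 18 arrays detected it, that is, gave it a detection p-value under 0.05, which kept 22203 of 45281 probes (49%). The kept probes that name 1 gene cover 11149 of the 19057 genes on the array.

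Both lines descend from hepatocytes of C57BL/6N mice that lack the aryl hydrocarbon receptor (AhR-/- Hepa) and that were transformed with a temperature-sensitive mutant of SV40 (tsA209). The reconstituted line carries the tetracycline repressor (pLenti6/TR) and a HisMyc-tagged mouse AhR (pLV501_HisMyc_mAhR), and the AhR-null line carries the repressor alone. Both were kept at 34 °C in medium with 10% serum and 100 nM dexamethasone. For suspension, confluent cells were detached with trypsin and EDTA and resuspended in medium with 1.68% methylcellulose. The other 12 arrays hold the same lines attached for 8 h, with 10 µM YH439, an AhR ligand, or with 0.1% DMSO. The labels do not say whether a line is 1 clone or a pool, how much AhR protein the reconstituted cells made, or whether an inducer was given. They call the replicates biological but do not mention separate cultures, so each p-value reflects the variation among these arrays alone, part or all of which may be technical. In bulk RNA, fewer cells with a transcript and less of it per cell cannot be told apart.

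AhR is a transcription factor of the bHLH-PAS family that waits in the cytoplasm with HSP90 and moves to the nucleus when a ligand such as dioxin binds it. There it pairs with ARNT and binds response elements with the core GCGTG beside genes of foreign compound metabolism, above all the cytochromes P450 Cyp1a1 and Cyp1b1, and beside the genes of its own feedback, Ahrr and Tiparp. Loss of cell contact has also been described as a trigger of AhR activity when no foreign ligand is given, and the title of the series sets adhesion loss beside xenobiotics as a driver of AhR signalling. The difference between the lines in suspension shows which transcripts differed between the lines in detached cells. With a single line of each kind, the presence of AhR and any other difference between the lines cannot be told apart.

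The values are background-corrected, quantile-normalized log2 bead intensities, and a difference is reconstituted minus AhR-null on that scale. Values after ± are standard errors unless SD is stated, and an adjusted p is limma's with Benjamini-Hochberg adjustment over all 11149 genes, called under 0.05. Of the 45281 probes, 42% to 44.6% were detected per array. The 6 dimmest arrays were replicate 1 of the reconstituted line and replicate 3 of the AhR-null line in all 3 treatments, with median signals up to 7.19, and the others began at 8.78. In suspension the median signals were 6.97, 9.17 and 9.87 on the reconstituted arrays, and 11.6, 11.5 and 6.15 on the AhR-null arrays. AhR-null replicate 3 stood apart from its own group: the lowest correlation between 2 suspended arrays was 0.9924 in the reconstituted line and 0.9692 in the AhR-null line, under every value between the lines (0.979 to 0.9905). Line and array brightness therefore overlap in the design, and only the 6 dimmest arrays hold both lines. Array sets are read here from the signal and not from a label.

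The Ahr transcript could not check the reconstitution. Its probe (ILMN_2737460) was detected on 0 of the 6 suspended arrays and on 1 of all 18. The normalized values were 4.37, 4.75 and 4.59 in suspended reconstituted cells, and 4.37, 4.39 and 4.33 in suspended AhR-null cells, all at the level of background. Whether the introduced cDNA contains the stretch that this probe reads is not known.

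Suspended reconstituted cells differed from suspended AhR-null cells in 199 of 11149 genes (1.78% of those tested), 83 higher (0.744%) and 116 lower (1.04%). The sizes were moderate. The median absolute difference of the 199 genes was 0.70 on the log2 scale, within 0.36 and 2.08, and 14 genes were higher and 21 lower by at least 2-fold. The higher genes were led by enzymes of foreign compound and aldehyde metabolism (Adh7, Nqo1, Cyp1b1, Aldh3a1 and 3 alpha class glutathione transferases). The largest lower values were those of Greb1, Slit3, Nxph1, Cntnap2 and Trim30a, and 11 interferon-stimulated genes were among the lower genes. Arrays of the lines did not overlap for 1707 genes (15.3%), all 199 among them. An unadjusted p under 0.05 was reached by 1362 genes, and the median difference of all genes was 0.012. The count depends strongly on the arrays used. With only the 6 suspended arrays in the fit 18 genes passed (5 higher, 13 lower). Leaving out suspended AhR-null replicate 1 or 2 left 86 and 130 genes, leaving out suspended reconstituted replicate 1, 2 or 3 left 112, 94 and 87, and leaving out suspended AhR-null replicate 3 gave 267. Without AhR-null replicate 3 in all 3 treatments 2734 genes passed (1510 higher, 1224 lower), and all 199 were among them. With the array sets as a block, where the line difference rests on the dim arrays, 782 genes passed (252 higher, 530 lower), 170 of the 199 among them. How much of the difference belongs to the lines and how much to the arrays cannot be told apart beyond these values.

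**Figure D1:**
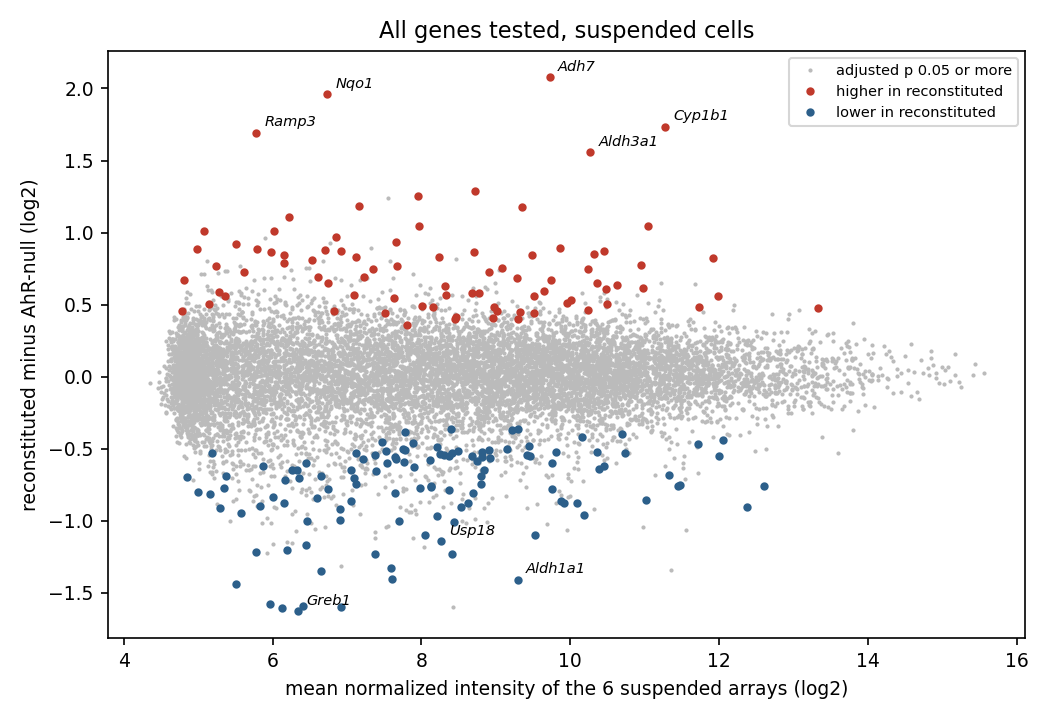
Difference between the lines in suspension (reconstituted minus AhR-null, log2) of 11149 genes against their mean normalized intensity over the 6 suspended arrays (log2). Red points are the 83 genes higher and blue points the 116 genes lower in reconstituted cells at an adjusted p under 0.05; Adh7 stands highest at 2.08 and Greb1 lowest at -1.63.

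Members of the AhR gene battery, the genes that AhR is known to induce, were higher in suspended reconstituted cells: 8 of 16 tested members passed, all 8 of them higher, with a median of 0.59 beside 0.012 over all genes. Adh7, Foxq1 and Ptx3 had been put on this list with their YH439 response in these cells known; without them 6 of 13 members passed, with a median of 0.49. The 8 members are 50% of those tested, beside 1.78% of all genes. With only the 6 suspended arrays in the fit 3 members passed. The battery count was 10 without AhR-null replicate 3 and 9 with the array sets as a block.

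Cyp1b1 (ILMN_1232716), the cytochrome P450 that oxidises steroids and polycyclic hydrocarbons, had normalized values of 12.08, 11.99 and 12.33 in suspended reconstituted cells, and 10.80, 10.65 and 9.75 in suspended AhR-null cells. The lines did not overlap, and AhR-null replicate 3 was the lowest array. The transcript was 3.33-fold higher in reconstituted cells (1.74 ± 0.27, adjusted p = 0.00208). With only the 6 suspended arrays in the fit the call was lost (adjusted p = 0.0777, against 1.43e-06 at the lowest of 19 alternatives). The line difference was 0.22 with DMSO (adjusted p = 0.768) and 1.34 with YH439 (adjusted p = 0.0168). Cyp1a1 (ILMN_2613985), the classic AhR target of hepatocytes, was detected on 0 of the 18 arrays.

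The promoters of Cyp1b1 and of Ramp3, the largest change outside the metabolic enzymes, are shown because both hold the AhR core motif in the 250 bases before the gene start. The sequences are from RefSeq (GRCm38.p6), 5′ to 3′ on the strand of the gene, and capitals mark GCGTG or its reverse complement. In Cyp1b1 (chr17:79715062-79715311, minus strand) 1 match begins 76 bases before the start, on the opposite strand. In Ramp3 (chr11:6658283-6658532, plus strand) the 2 matches begin 65 and 219 bases before it, the near one on the gene's own strand.
Cyp1b1: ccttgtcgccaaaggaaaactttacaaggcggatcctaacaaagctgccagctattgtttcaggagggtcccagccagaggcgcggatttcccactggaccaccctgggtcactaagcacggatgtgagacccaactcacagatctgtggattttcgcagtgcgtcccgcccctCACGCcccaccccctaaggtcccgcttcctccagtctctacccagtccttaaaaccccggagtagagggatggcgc
Ramp3: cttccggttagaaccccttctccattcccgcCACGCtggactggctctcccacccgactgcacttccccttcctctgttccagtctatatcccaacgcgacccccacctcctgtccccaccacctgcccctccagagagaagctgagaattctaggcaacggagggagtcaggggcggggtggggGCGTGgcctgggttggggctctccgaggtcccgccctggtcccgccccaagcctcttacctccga

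The core is short and common, and its presence says nothing of binding. GCGTG, on either strand, occurs in 28.2% of 32851 promoters of this length. Counted by gene, it occurs in any promoter of 4478 of the 9060 tested genes with a sequence (49.4%). These shares have unlike units, since a gene can have several promoters. Among genes past the threshold it occurs in 25 of 62 higher genes (40.3%) and in 36 of 91 lower genes (39.6%), both under the share of the tested genes. The longer form TNGCGTG, which contains the core, occurs in 5 of 62 higher genes (8.06%) and 3 of 91 lower genes (3.3%), beside 7.74% of the tested genes. Of the 6 battery members past the threshold that have a sequence, Cyp1b1 alone holds the core in this window.

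Nqo1, a quinone reductase that serves both AhR and NRF2 as a target, had values of 7.84, 7.58 and 7.72 in suspended reconstituted cells, and 5.80, 5.53 and 5.92 in suspended AhR-null cells. The lowest reconstituted array lay far above the highest AhR-null array. The transcript was 3.90-fold higher (1.96 ± 0.20, adjusted p = 4.7e-05), and it kept its call in all 19 alternatives. The difference was 0.90 with DMSO, which did not pass (adjusted p = 0.0561), and 1.79 with YH439 (adjusted p = 9.4e-05). A second Nqo1 probe was not detected on any of the 18 arrays.

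Aldh3a1, an aldehyde dehydrogenase induced by dioxin in liver cells, had values of 11.04, 10.92 and 11.17 in suspended reconstituted cells, and 9.28, 9.39 and 9.78 in suspended AhR-null cells. Each line was tight and the lines did not overlap. The transcript was 2.94-fold higher (1.56 ± 0.14, adjusted p = 2.27e-05). The line difference was 0.16 with DMSO and 2.26 with YH439. Aldh3a1 was the 1 gene of 11149 (0.00897%) whose line difference changed significantly between DMSO and suspension (1.39 ± 0.20, adjusted p = 0.0404).

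Adh7, a retinol-oxidising alcohol dehydrogenase, showed the largest difference of all genes. Its values were 10.86, 10.78 and 10.64 in suspended reconstituted cells, and 8.36, 8.44 and 9.25 in suspended AhR-null cells, where replicate 3 was the highest. The transcript was 4.22-fold higher (2.08 ± 0.24, adjusted p = 0.000199), with 1.33 under DMSO (adjusted p = 0.014) and 2.89 under YH439 (adjusted p = 7.78e-06). A second kept Adh7 probe (ILMN_1238226) stood at -0.38 and did not pass, and the mean of the kept probes was 0.85.

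The remaining battery members past the threshold were smaller in size. Gsta1, an alpha class glutathione transferase, was higher by 1.18 ± 0.20, Foxq1, a forkhead factor, by 1.25 ± 0.22, and Serpinb2, an inhibitor of urokinase, by 0.81 ± 0.19. Nfe2l2, which encodes NRF2 and has AhR response elements described in mouse, was higher by 0.68 ± 0.09 (adjusted p = 0.000543), with 9.66, 9.62 and 9.58 in reconstituted cells, and 8.86, 8.94 and 9.01 in AhR-null cells. The Serpinb2 call was among the least stable, lost in 9 of 19 alternatives.

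The feedback genes did not pass. Tiparp, the ADP-ribosyltransferase that restrains AhR, had values of 7.38, 6.91 and 7.31 in suspended reconstituted cells, and 6.72, 7.02 and 6.36 in suspended AhR-null cells. The lines overlapped, and the difference was 0.49 ± 0.19 (adjusted p = 0.274), beside 0.02 with DMSO and 1.52 with YH439 (adjusted p = 0.000348). Ahrr, the AhR repressor, was detected on 1 of the suspended reconstituted arrays and on 0 of the suspended AhR-null arrays and stood near background in both (0.23, adjusted p = 0.591). Ptx3, a pentraxin of innate immunity, stood at 0.37 (adjusted p = 0.0659), Ugt1a6a, a glucuronosyltransferase, at 0.30 and Il6 at -0.11.

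Of 9 tested genes of the AhR complex and its partners, 1 passed (11.1%, beside 1.78% of all genes). Arnt, the dimerization partner, had values of 9.94, 10.01 and 9.89 in suspended reconstituted cells, and 10.32, 10.34 and 10.44 in suspended AhR-null cells. It was lower in reconstituted cells by a small amount on tight arrays (-0.42 ± 0.08, adjusted p = 0.0165), and its 5 other kept probes ranged from -0.40 to -0.06 and did not pass. The Arnt call was lost in 6 of 19 alternatives. Nrip1, a coregulator, stood at -0.96 with overlapping arrays (adjusted p = 0.501) and ranged from -1.38 to 0.05 over the alternatives, and the NF-kB subunit Rela stood at 0.36 (adjusted p = 0.178).

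**Figure D2:**
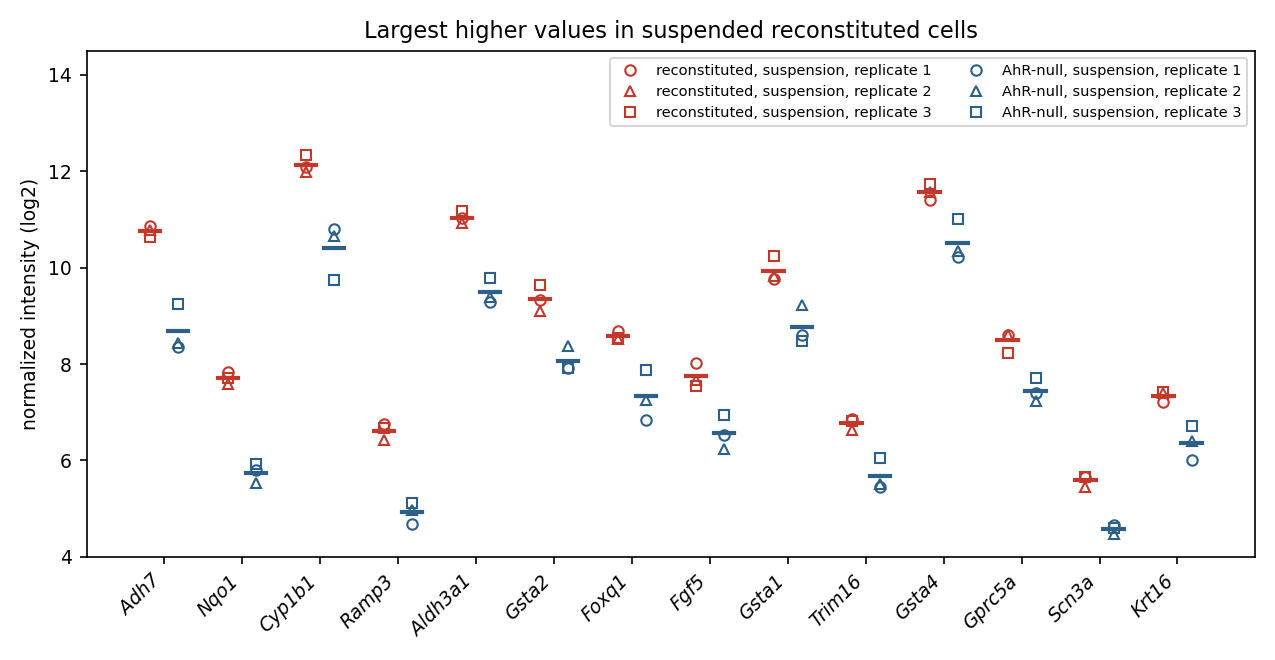
Normalized intensity (log2) on each suspended array of the 14 genes with the largest higher values past the threshold, reconstituted arrays in red left of AhR-null arrays in blue, with a bar at each group's mean. The arrays of the lines do not overlap for any of the 14 genes, which was a condition of their choice. AhR-null replicate 3 lies nearest the reconstituted arrays for Adh7, Foxq1 and Gsta4, among others, and farthest from them for Cyp1b1.

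Antioxidant genes were higher in part. Of 20 tested NRF2 targets, which defend against electrophiles and oxidants, 6 passed, all 6 higher, and the list's median was 0.23. Beside Nqo1 and Nfe2l2 they were Srxn1, which repairs oxidised peroxiredoxins (0.87 ± 0.13, adjusted p = 0.00183), Hmox1, the inducible heme oxygenase (0.78 ± 0.16, adjusted p = 0.0163), Abcc4, an efflux pump (0.75 ± 0.10), and Gclm, the modifier subunit of glutathione synthesis (0.64 ± 0.10). Srxn1 had values of 10.89, 10.94 and 10.83 in suspended reconstituted cells, and 9.95, 9.88 and 10.23 in suspended AhR-null cells, without overlap. Among those that did not pass, Slc7a11, the cystine transporter, stood at 0.52, Gclc at -0.17, Txnrd1 at -0.13 and Keap1 at 0.00. These 6 are 30% of the list, beside 1.78% of all genes, and 1 member passed with only the 6 suspended arrays in the fit. The NRF2 count was 8 with the array sets as a block and 8 higher and 1 lower without AhR-null replicate 3.

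Within the glutathione transferases the alpha class stood out by size. Of 22 tested members 5 passed (22.7%, beside 1.78% of all genes), 4 higher and 1 lower, with a median of 0.13. With only the 6 suspended arrays in the fit 0 passed (the spread is then estimated from fewer arrays). The count was 2 without suspended reconstituted replicate 3, and without AhR-null replicate 3 in all treatments 8 were higher and 4 lower. Gsta2 had values of 9.33, 9.10 and 9.64 in suspended reconstituted cells, and 7.92, 8.37 and 7.91 in suspended AhR-null cells, a difference of 1.29 ± 0.19 (adjusted p = 0.00168). Gsta4, which clears the lipid peroxidation product 4-hydroxynonenal, was higher by 1.04 ± 0.24 (adjusted p = 0.0375), although AhR-null replicate 3 at 11.00 lay close to the lowest reconstituted array at 11.40; that call was lost in 7 of 19 alternatives. Gsto1, of the omega class, was higher by 0.48 ± 0.09 and Gstt3, of the theta class, was lower (-0.58 ± 0.11). Gsta1 and Gsta2 are near-identical, so which of them the probes measured is uncertain; the other kept Gsta1 probes stood at 1.55 and 1.23. Gsta3, of the same class, stood at 0.08, and all 6 mu class members lay between -0.28 and 0.25.

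Outside metabolism, Ramp3, which couples the calcitonin-like receptor to adrenomedullin, had the smallest p of the higher genes. Its values were 6.75, 6.43 and 6.68 in suspended reconstituted cells, and 4.68, 4.98 and 5.12 in suspended AhR-null cells, where it was detected on 2 of 3 arrays near background. The transcript was 3.24-fold higher (1.69 ± 0.14, adjusted p = 1.06e-05), beside 0.47 with DMSO and 0.87 with YH439. Its second probe gave 0.96.

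Of the other largest higher genes, Fgf5, a fibroblast growth factor whose call was lost in 6 of 19 alternatives, stood 1.18 ± 0.26 above the AhR-null cells, Trim16, a ubiquitin ligase, 1.11 ± 0.17, Gprc5a, an orphan receptor induced by retinoic acid, 1.04 ± 0.17, and Krt16, a stress keratin, 0.97 ± 0.19. A second kept Gprc5a probe stood at 0.40 and did not pass. Krt16 had values of 7.21, 7.39 and 7.42 in suspended reconstituted cells, and 6.01, 6.40 and 6.71 in suspended AhR-null cells. Its line difference was 0.02 with DMSO and 0.08 with YH439. In attached cells it stood near background, detected on 1 or 2 of 3 arrays in each group, so equal levels are not shown there. The Krt16 call was lost in 6 of 19 alternatives. Scn3a, a sodium channel subunit, was detected on reconstituted arrays alone and so met the detection filter only through the line where it is high. It was not well above background on any suspended AhR-null array, so it has only a bound: it was at least 1.5-fold higher in reconstituted cells (adjusted p = 0.00162). Such a bound compares the reconstituted mean with the AhR-null mean after each AhR-null value was raised, where needed, to that array's dimmest detected probe.

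Interferon-stimulated genes, which code for antiviral effectors and for the immunoproteasome, were lower in suspended reconstituted cells. Of 28 tested members 11 passed (39.3%, beside 1.78% of all genes), all 11 lower. The arrays of 16 members did not overlap (57.1%, beside 15.3% of all genes). The list's median was -0.50, and 26 of its 28 members stood below 0. The medians were -0.31 with DMSO and -0.29 with YH439, where 2 and 4 members passed, all lower (over all genes, 0.547% and 1.44% passed). Without AhR-null replicate 3 the count was 16, and with the array sets as a block 15. With only the 6 suspended arrays in the fit it was 1, and it was 4 without suspended AhR-null replicate 1, 6 without reconstituted replicate 2 and 5 without reconstituted replicate 3.

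Usp18, which removes ISG15 from proteins and dampens the interferon receptor, had values of 7.77, 7.60 and 7.71 in suspended reconstituted cells, and 8.97, 8.65 and 8.89 in suspended AhR-null cells. The lines were well apart, and the transcript was 2.21-fold lower in reconstituted cells (-1.14 ± 0.14, adjusted p = 0.000508). A second kept Usp18 probe stood at -0.66 and did not pass. Rsad2, which encodes the antiviral protein viperin, had 5.81, 5.97 and 5.80 in reconstituted cells, and 6.87, 6.81 and 7.40 in AhR-null cells (-1.17 ± 0.19, adjusted p = 0.00259). Oasl2, an oligoadenylate synthetase-like protein, had 9.12, 8.87 and 8.95 in reconstituted cells, and 10.27, 10.28 and 9.71 in AhR-null cells (-1.10 ± 0.17, adjusted p = 0.00251). Its other kept probes stood at -0.86, which passed, and at -0.35, which did not. In each of these genes the highest reconstituted array lay under the lowest AhR-null array.

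Ifit3, which binds foreign RNA complexes, had 7.19, 7.32 and 7.09 in suspended reconstituted cells, and 8.29, 7.79 and 8.52 in suspended AhR-null cells (-1.0 ± 0.18, adjusted p = 0.00863). Gbp3, a guanylate-binding GTPase, had 8.42, 8.31 and 8.17 in reconstituted cells, and 9.15, 9.04 and 9.12 in AhR-null cells (-0.80 ± 0.11, adjusted p = 0.000829). Mx2, a dynamin-like antiviral GTPase, stood at -0.91, Oasl1 at -0.60 and Oas1g at -0.46. The immunoproteasome subunits Psmb9 and Psmb8 were lower as well (-0.87 and -0.55), and so was Irf9, the DNA-binding subunit of the interferon-activated complex ISGF3 (-0.51 ± 0.11, adjusted p = 0.0229). Its partner Stat2 (-0.50, adjusted p = 0.0571) and Irf7 (-0.85, adjusted p = 0.0659) did not pass. Isg15 stood at -0.20, Ifitm3 at -0.09, Gbp2 at -0.07 and B2m at -0.07. Gbp and Oas genes have close relatives, so single members are uncertain.

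The promoters of 3 of the 11 genes are shown because they hold the interferon-stimulated response element, the site of ISGF3, in the same 250-base window. The motif searched was GAAA, any 2 bases and GAAA again, on both strands; capitals mark it or its reverse complement, and in all 3 genes the matches lie on the opposite strand (RefSeq, GRCm38.p6). Ifit3 (chr19:34583279-34583528, plus strand) holds 2 matches that begin 122 and 156 bases before the start. Rsad2 (chr12:26456453-26456702, minus strand) holds 1 at 120 bases. Gbp3 (chr3:142559794-142560043, plus strand) holds 2 overlapping matches at 39 and 45 bases.
Ifit3: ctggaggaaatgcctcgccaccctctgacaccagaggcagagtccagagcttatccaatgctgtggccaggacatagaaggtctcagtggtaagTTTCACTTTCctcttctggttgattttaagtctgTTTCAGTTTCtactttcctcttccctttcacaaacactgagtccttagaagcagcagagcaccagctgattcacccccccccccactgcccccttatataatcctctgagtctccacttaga
Rsad2: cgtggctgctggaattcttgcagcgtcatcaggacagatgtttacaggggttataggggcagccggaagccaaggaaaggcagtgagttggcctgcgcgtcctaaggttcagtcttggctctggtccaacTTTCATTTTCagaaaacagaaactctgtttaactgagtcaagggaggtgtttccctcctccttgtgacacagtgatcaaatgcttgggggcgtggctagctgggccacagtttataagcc
Gbp3: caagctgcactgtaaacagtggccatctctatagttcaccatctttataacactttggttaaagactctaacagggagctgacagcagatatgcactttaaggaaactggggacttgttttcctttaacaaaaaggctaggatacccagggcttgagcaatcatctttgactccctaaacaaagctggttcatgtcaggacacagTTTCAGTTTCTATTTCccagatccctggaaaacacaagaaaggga

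The element occurs in 2.98% of all 32851 promoters and in 298 of 9060 tested genes with a sequence (3.29%). It occurs in 15 of 91 genes that were lower (16.5%) and in 0 of 62 that were higher. Within the interferon list it occurs in 10 of 26 members with a sequence (38.5%), and in 4 of the 9 that passed. The matched letters describe the windows and do not show that a factor bound there.

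**Figure D3:**
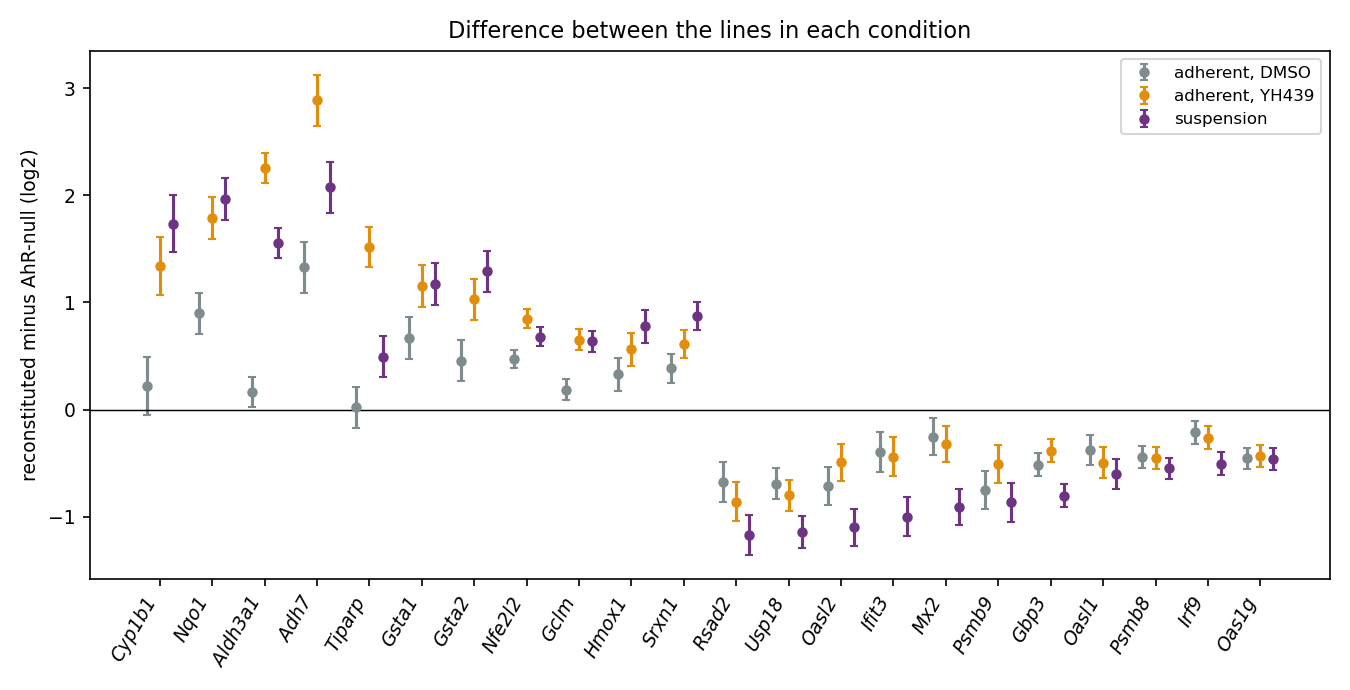
Difference between the lines (reconstituted minus AhR-null, log2) in attached cells with DMSO, attached cells with YH439 and suspended cells for 11 AhR and NRF2 genes and 11 interferon-stimulated genes; points are the fitted differences and bars 1 standard error, from 3 arrays per group. Cyp1b1 and Aldh3a1 stand near 0 with DMSO and above 1 in both other conditions, and each of the 11 interferon-stimulated genes is below 0 in all 3 conditions.

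Among the 14 largest lower values were several genes of axon guidance, adhesion and matrix. Slit3, a guidance ligand of ROBO receptors, had values of 5.30, 5.47 and 5.18 in suspended reconstituted cells, and 7.11, 7.28 and 6.39 in suspended AhR-null cells, and was 3.05-fold lower (-1.61 ± 0.22, adjusted p = 0.000841). Nxph1, a neurexin ligand, had 6.55, 5.85 and 5.94 in reconstituted cells, and 7.85, 7.35 and 7.93 in AhR-null cells (-1.60 ± 0.19). Draxin, which repels growing axons, was lower as well (-1.23 ± 0.18), with a second kept probe at -0.25 that did not pass. Cntnap2, a neurexin-like adhesion protein, stood at -1.59 ± 0.14, but its other kept probes, at -0.12 and -0.36, did not pass.

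Among matrix genes, Mmp3, the stromelysin that cleaves proteoglycans, had 7.85, 7.79 and 7.76 in suspended reconstituted cells, and 9.06, 9.14 and 8.89 in suspended AhR-null cells, a 2.35-fold lower level (-1.23 ± 0.15, adjusted p = 0.000396). Its other kept probes, at -0.92 and -0.76, did not pass. Adamts9, an aggrecan-cleaving protease, was 2.54-fold lower (-1.35 ± 0.14). Omd, a keratan sulfate proteoglycan, was lower with a call that was lost in 8 of 19 alternatives (-1.22 ± 0.26, adjusted p = 0.0263). Of 28 tested collagen and matrix genes 2 passed (7.14%, beside 1.78% of all genes). Both are small leucine-rich proteoglycans: Dcn, decorin (-0.68 ± 0.09), and Bgn, biglycan (-0.56 ± 0.10). The median of that list was -0.21. Of 20 matrix proteases and inhibitors, Plaur, the urokinase receptor, and Serpinb2 were higher (0.83 and 0.81) beside the lower Mmp3. The share past the threshold was 15% of that list, beside 1.78% of all genes.

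Greb1, a gene known for its response to estrogen, had the largest lower value, with 5.32, 5.82 and 5.46 in suspended reconstituted cells, and 7.01, 7.19 and 7.29 in suspended AhR-null cells. It was 3.09-fold lower (-1.63 ± 0.17, adjusted p = 6.4e-05), and its second probe gave -1.41. Aldh1a1, which makes retinoic acid from retinal, had 8.56, 8.36 and 8.84 in reconstituted cells, and 9.96, 10.08 and 9.94 in AhR-null cells, and was 2.66-fold lower (-1.41 ± 0.14, adjusted p = 4.7e-05). Aldh1a1 thus differed in the opposite direction to the retinol dehydrogenase Adh7 in the same cells. Inmt, a methyltransferase of indoleamines, was lower (-1.33 ± 0.15), with a second probe at -0.45 that did not pass.

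Trim30a, a regulator of innate immune signalling, had the smallest p of all genes. Its values were 5.12, 5.25 and 5.16 in suspended reconstituted cells, and 6.71, 6.88 and 6.66 in suspended AhR-null cells, 2.98-fold lower (-1.58 ± 0.11, adjusted p = 2.3e-06). Capn6, a calpain without protease activity, was 2.64-fold lower (-1.40 ± 0.14). Gramd1b, a sterol transfer protein, was lower by -1.44 ± 0.13 with 1 of 3 reconstituted arrays detected and a second probe at -0.07, and Scara5, a ferritin receptor, by -1.20 ± 0.16 with a second probe at -0.02. The Gramd1b line difference was -0.53 with DMSO and -0.37 with YH439, neither of which passed. Both sizes are limited by background: in each condition 0 of 3 reconstituted and 2 of 3 AhR-null arrays detected it.

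**Figure D4:**
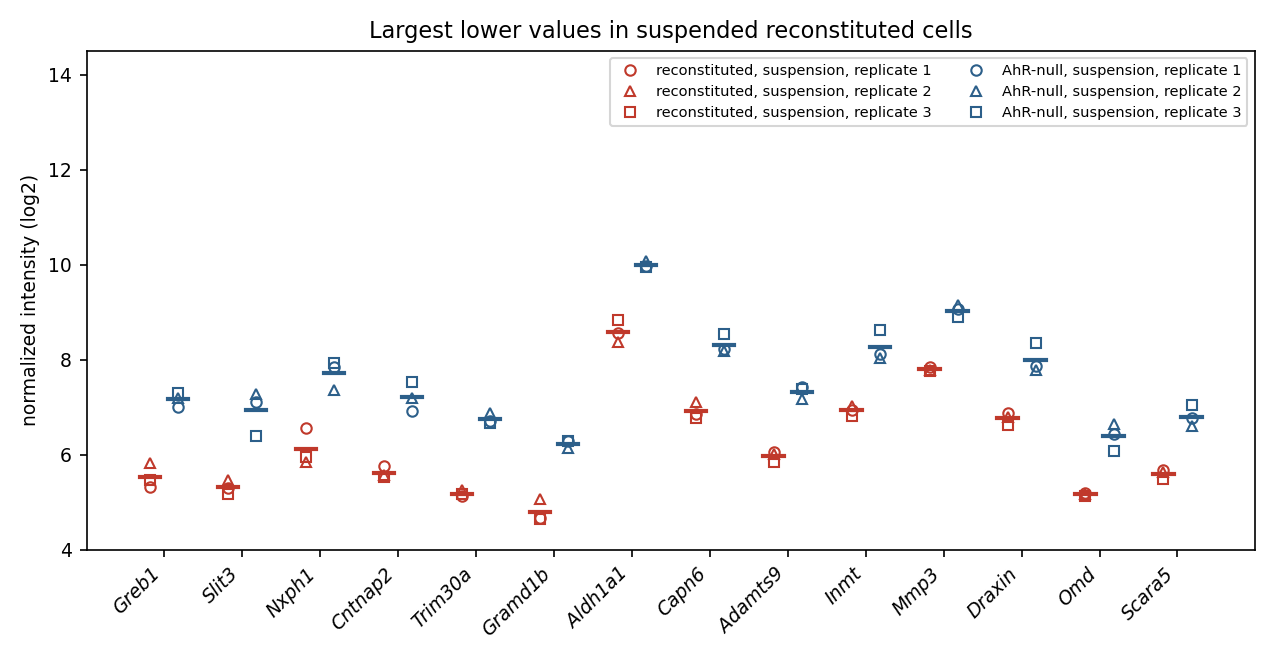
Normalized intensity (log2) on each suspended array of the 14 genes with the largest lower values past the threshold, reconstituted arrays in red left of AhR-null arrays in blue, with a bar at each group's mean. For each of the 14 genes all 3 reconstituted arrays lie under all 3 AhR-null arrays, which was a condition of their choice.

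Most of the 199 genes stood on the same side in attached cells. The sign was the same with DMSO for 187 of 199 and with YH439 for 193, beside 72.6% and 72.4% of all genes. The attached arrays enter the estimate of the spread behind the 199 calls, and arrays of a line are correlated across treatments, so these shares are not independent of the calls. The number past the threshold in the attached cells was 45 with DMSO and 86 with YH439 (over all genes, 61 or 0.547% and 161 or 1.44%), and 108 passed in neither. The 83 higher genes had medians of 0.32 with DMSO, 0.42 with YH439 and 0.69 in suspension, and 7 and 34 of them passed with DMSO and with YH439. The 116 lower genes had medians of -0.46, -0.50 and -0.70, and 38 and 52 of them passed. Since the genes were chosen in suspension, a larger size there is set by the choice, and no order is read from it.

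The test of that change itself found 1 gene, Aldh3a1, and 295 genes had an unadjusted p under 0.05. Within a line, arrays with the same replicate number deviated together (correlation 0.173 to 0.52 in the reconstituted and 0.555 to 0.862 in the AhR-null line). In the AhR-null line replicates 1 and 2 also correlated across numbers (0.543 to 0.683), so there the pattern is largely that of replicate 3 standing apart. With these numbers as a random block, 31 of 11149 genes passed, 20 with a positive and 11 with a negative change of the line difference from DMSO to suspension. Of the 31, 23 were among the 199, which are 1.78% of all genes. Both results hold the same difference between suspended arrays, so this overlap is partly built in and is not read as agreement. The 31 included Cyp1b1 (1.52 ± 0.18, adjusted p = 0.000932), Aldh3a1 (1.39 ± 0.12, adjusted p = 3.68e-05), Serpinb2 (1.37 ± 0.19), Ramp3 (1.22 ± 0.17) and Nqo1 (1.07 ± 0.14, adjusted p = 0.00211). Krt16 (0.94 ± 0.15) and Gsta2 (0.83 ± 0.15) also passed, while Adh7 (0.75, adjusted p = 0.112) and Tiparp (0.47, adjusted p = 0.335) did not. With DMSO, Krt16 and Ramp3 stood near background, so the sizes of their changes are uncertain. On the negative side were Draxin (-0.67) and Trim30a (-0.53). Gramd1b and Btg2, an antiproliferative gene, also passed on that side, but neither was detected on any reconstituted DMSO array, and Btg2 was not detected on any AhR-null DMSO array, so no size is given for them. Those outside the fixed naming rule were chosen after their values were seen.

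Of the 27 pathway lists, 12 had 0 members past the threshold by limma. Of their 259 tested genes 38 had an unadjusted p under 0.05 (14.7%), beside 12.2% of all genes. The 12 lists were picked for having 0 called members, so these shares do not show whether they differ from the background. They include the 28 tested ATF4 and unfolded protein response genes (median 0.13), the 26 hypoxia and glycolysis genes (-0.12), the 25 integrins and focal adhesion genes (0.09), the 18 SRF and MRTF targets (0.14) and the 21 BCL2 family and anoikis genes (0.07). The 23 mitosis genes (0.12), 30 DNA replication genes (0.00) and 19 ribosomal protein genes (0.07) are also among them. A miss of the threshold does not show equal levels: Bnip3, a mitophagy receptor induced by hypoxia, had 5.60, 5.25 and 6.03 in reconstituted cells, and 7.24, 7.27 and 5.81 in AhR-null cells. Its difference of -1.15 did not pass (adjusted p = 0.0961), and AhR-null replicate 3 lay within the reconstituted range.

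In the remaining lists single members passed, 4.17% to 10% of each list named here, beside 1.78% of all genes. So few members are not read as a result about a list. Among 20 YAP and TEAD targets, Wwc1, a Hippo pathway scaffold, and Crim1, a BMP-binding membrane protein, were higher (0.86 and 0.83). The second kept Crim1 probe stood at -0.01, and the Crim1 call was lost with the mean of the kept probes. Ankrd1, another well-known YAP target, stood at 0.58 (adjusted p = 0.0712), with a second kept probe at 0.08. Of 24 G1 genes, Ccnd1, cyclin D1, was higher (0.61 ± 0.11, adjusted p = 0.009), with 10.89, 10.80 and 10.66 in reconstituted cells, and 10.05, 10.11 and 10.38 in AhR-null cells, and Myc stood at 0.68 (adjusted p = 0.121). Of 26 immediate-early genes, Dusp5, an ERK phosphatase, was higher (0.49) and Btg2 lower (-0.53). Btg2 was detected on 1 of 3 suspended reconstituted arrays, so its size is limited by background. Of 20 p53 targets, Gadd45a, a stress gene, was higher (0.51) and Btg2, on both lists, lower.

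Of 28 chemokine, cytokine and NF-kB genes 2 passed (7.14%, beside 1.78% of all genes). Cxcl14, a chemokine, was lower (-1.01 ± 0.14, adjusted p = 0.000841), and so was the cytokine Il18 (-0.37). Angptl4, a lipase inhibitor, was the 1 of 19 glucocorticoid targets past the threshold (5.26%), at 0.57. Sprr2k, a cornified envelope protein with close paralogs, was the 1 of 18 keratin and envelope genes (5.56%), at -0.96. Of 4 Prl2c placental hormone genes 1 passed (25%), Prl2c2, which was higher (0.56, adjusted p = 0.0241). Prl2c4 and Prl2c3, near-identical to it, stood at 0.65 and 0.64 and did not pass, so which member was measured is uncertain. The calls of Dusp5, Btg2, Angptl4, Il18 and Prl2c2 were lost in 6 to 10 of 19 alternatives, that of Gadd45a in 5 and that of Ccnd1 in 4.

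**Figure D5:**
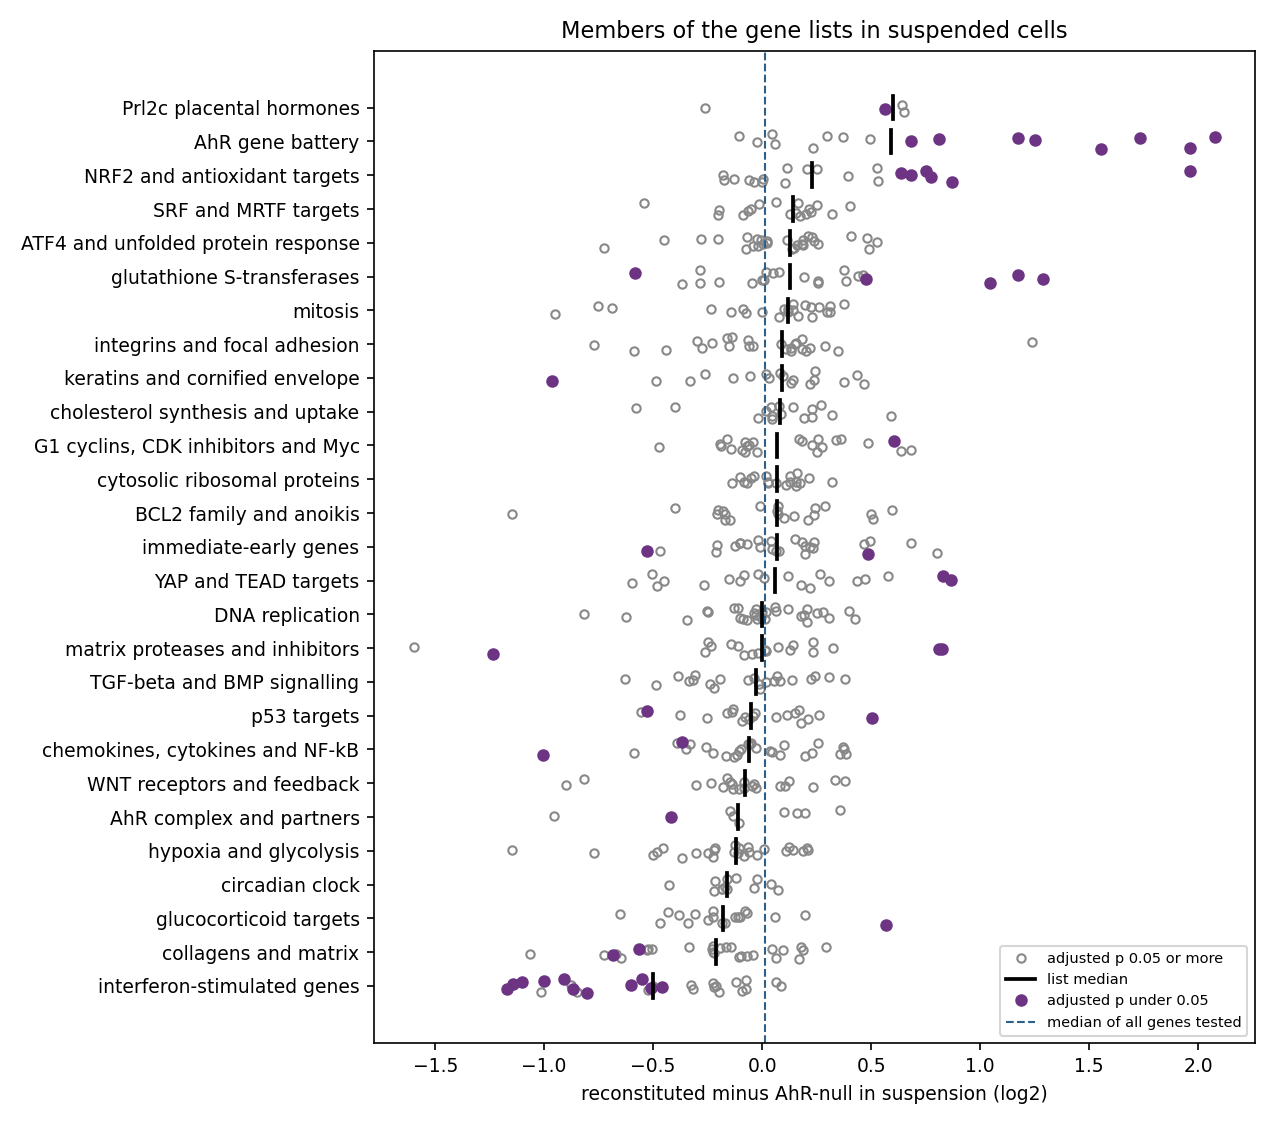
Difference between the lines in suspension (reconstituted minus AhR-null, log2) of the tested members of the 27 pathway lists, ordered by the list's median (black bar); filled points passed at an adjusted p under 0.05 and the dashed line is the median of all 11149 genes (0.012). The AhR gene battery has 8 filled points, all to the right, and the interferon-stimulated genes 11, all to the left.

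The cell identity markers were compared beside these groups. Of 33 hepatocyte genes 15 were tested and 16 were detected on none of the arrays, and 4 were detected on all 18. Of the 15 tested, 1 passed (6.67%, beside 1.78% of all genes). This was Ahsg, fetuin A, lower in reconstituted cells (-0.95) with a call lost in 9 of 19 alternatives. A second kept Ahsg probe stood at -0.23 and did not pass. The summed linear signal of the 15 genes was 1280 to 1310 in reconstituted cells and 1110 to 1440 in AhR-null cells. Of 17 tested mesenchymal and stellate markers 2 passed (11.8%, beside 1.78% of all genes). Pdgfra, a PDGF receptor (-0.78 ± 0.11), and Snai2, the SLUG repressor (-0.76 ± 0.12), were lower. The second kept Pdgfra probe stood at 0.01, and Vim, the mesenchymal filament vimentin, stood on the other side at 0.46 without passing (adjusted p = 0.0775). The sum of the 17 markers was 44900 to 48500 in reconstituted cells and 51700 to 55200 in AhR-null cells, without overlap. The sums of the 4 bile duct markers (5760 to 6720, against 4230 to 7460), the 4 macrophage markers (421 to 454, against 386 to 455) and the 6 endothelial markers (5460 to 6150, against 5670 to 6340) overlapped. The lower mesenchymal sum moves with the lower Dcn, Bgn, Omd and Slit3; its part in those results was not tested.

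Probes without a gene name were tested as well. Of 22203 probes 252 passed (1.13%), 114 higher and 138 lower, and 43 of them name no gene or several (20 higher, 23 lower). The probe ILMN_1249220, with no gene name, had 11.34, 11.24 and 11.21 in suspended reconstituted cells, and 12.66, 12.72 and 12.80 in suspended AhR-null cells (-1.46 ± 0.09, adjusted p = 1.77e-06), with -1.58 under DMSO and -1.62 under YH439. The probe ILMN_1239602 was not well above background on any suspended AhR-null array and was at least 2.2-fold higher in suspended reconstituted cells. It met the detection filter only through the 3 suspended reconstituted arrays, the group where it is high. It was detected on 0 attached arrays of either line. Its differences there, 0.06 with DMSO and 0.12 with YH439, therefore lie between background values.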

How the data were processed

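RNA of 18 samples in 6 groups was measured on Illumina mouse BeadChips of 45281 probes, from 500 ng of RNA each. Per the submitters' processing notes the authors used BeadStudio (version not given in the sources). Per the file headers, the authors' deposited non-normalized table holds for each array the background-subtracted bead intensity and a detection p-value for each probe. A second deposited table, of intensity on a linear scale as the authors had processed it, has a floor and an unknown scaling and served as an alternative.

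In limma 3.58.1 (R 4.3.3), neqc was run on the intensities: normexp background correction, with the negative controls' mean and spread derived from detection p-values, then an offset of 16, quantile normalization and log2. Of the 22203 kept probes, 3530 named no gene or several. Each gene was represented by its brightest kept probe on average. More than 1 kept probe was held by 4775 genes, and the other probes of a named gene are not given in each case. Gene names come from the platform annotation, and 34807 of the 34885 probes with 1 gene were found in RefSeq (GRCm38.p6), used for names, chromosomes and promoters. The 6 group means were fitted together (lmFit, then eBayes; 18 arrays, 12 residual degrees of freedom) and tested two-sided with Benjamini-Hochberg adjustment. The fit was tested on simulated data.

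The genes named are Ahr, Arnt, Ahrr, Cyp1a1, Cyp1b1, Tiparp, Nqo1 and Aldh3a1, the 14 largest higher and 14 largest lower values among called genes with no overlap between the lines and with detection on all 3 arrays of the brighter line, in each list up to 4 members by smallest p, and changes of the line difference past the threshold. Genes under clone or predicted names were passed over. Any other gene was named after its values were seen. The members, the 27 pathway lists and the 6 marker lists were chosen with earlier results of these data known. Sex-linked genes were a marker list: Xist stood at -0.25 and Uty at 0.05, neither past the threshold. Across the lines, same-numbered arrays did not deviate together (correlation -0.32, -0.346 and -0.686), so numbers do not pair them; within a line every same-numbered pair correlated above 0.1. The number of arrays limits the precision. Alternatives changed the background correction, scaling, filter, probe rule, arrays in the fit, blocks and single arrays.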

Additional observations from a re-analysis of the deposited data

Results flagged for a closer look

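Aldh3a1 was singled out because the difference between the lines was of another size in suspension than with DMSO, by a test of that change over all genes. The change was 1.39 ± 0.20 on the log2 scale (limma, adjusted p = 0.0404). The line difference was 1.56 in suspension, where the means were 11.04 ± 0.12 in reconstituted cells and 9.49 ± 0.26 in AhR-null cells, and 0.16 with DMSO, where they were 9.43 ± 0.04 and 9.27 ± 0.14 (SD, n = 3 each). The call was lost in each fit that left out 1 of the DMSO arrays, 1 of the suspended reconstituted arrays or suspended AhR-null replicate 2. Groups of 3 arrays are too small for a check of single outlying samples.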

How the results depend on the processing

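The 199 genes past the threshold kept their direction in each alternative run, except with no detection filter, where 198 of 199 did. Since the lines did not overlap for any of the 199, leaving out arrays could not turn a direction round. A fit of only the groups compared also leaves the difference as it is. Those runs therefore do not test the direction. Of the named genes past the threshold 0 turned round. Of 92 followed genes not past it, 15 had values on both sides of 0, Nrip1 and Uty among them. The count itself moved: 115 with median scaling, 427 with the authors' processed values, 18 with only the groups compared, 782 with the array sets as a block, 2851 without the 6 dimmest arrays and 2734 without AhR-null replicate 3 in all treatments, an alternative added after seeing the data. Over all kept probes (252) the same settings gave 149, 618, 17, 862, 5254 and 5156. For the change of the line difference from DMSO to suspension (1 gene) the count was 9 with the authors' values, 3 with probes detected on all 3 arrays of a suspension group, 0 with only the groups compared (260 at an unadjusted p under 0.05), 12 with the array sets as a block, 4 without the 6 dimmest arrays and 7 without AhR-null replicate 3. The cause of these moves was not tested, beyond the fewer arrays that some settings hold. Leaving out 1 array gave 86 to 267 genes, 115 to 380 probes and 0 to 5 genes for the change; the gene count was 112, 94 and 87 without reconstituted replicate 1, 2 or 3, and 86, 130 and 267 without AhR-null replicate 1, 2 or 3. With the replicate number as a block shared across the lines the counts were 217, 278 and 1, and with same-numbered arrays of a line as a random block 146, 186 and 31.

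Of 56 named genes past the threshold, 13 kept their calls in all 19 alternatives with a test, 24 lost it in 1, for 21 of them the fit with only the groups compared, and 19 in more. The AhR battery had 3 to 10 members past the threshold over the alternatives, the NRF2 targets 1 to 10 higher, and the interferon-stimulated genes 1 to 16 lower; the lowest count of each came with only the groups compared. Signals near background limit Ahr, Ahrr, Ramp3, Scn3a, Gramd1b and Btg2, and Krt16 in attached cells.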

Other observations

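Several further genes of known receptor or signalling function passed in suspension and were chosen after their values were seen. Esr1, the estrogen receptor alpha, had 5.18, 5.38 and 5.60 in reconstituted cells, and 6.60, 6.19 and 6.06 in AhR-null cells (-0.90 ± 0.19, limma adjusted p = 0.021). Ghr, the growth hormone receptor, had 9.46, 9.61 and 9.33 in reconstituted cells, and 10.36, 10.36 and 10.31 in AhR-null cells (-0.88 ± 0.11, adjusted p = 0.000334), and Rarb, the retinoic acid receptor beta, stood at -0.72. The acute phase proteins Orm2 and Serpina3n stood at -0.92 and -0.91. On the higher side were Klf5, a zinc finger factor (0.84), Cbr3, a carbonyl reductase (0.85), Gpc1, a heparan sulfate proteoglycan (0.82), Gsdme, a pore-forming gasdermin (0.72), Il34, a ligand of the CSF1 receptor (0.85), and Scx, a tendon transcription factor (0.94).

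Also chosen after their values were seen, and not a count over any class, were these lower genes: Irgm2, an immunity-related GTPase, at -0.96, Ifi205 at -1.0, Ifi27l2a at -0.90, Samd9l at -0.62 and Irf2 at -0.55. On chromosome X 342 genes were tested and 9 passed (2.63%, beside 1.78% of all genes), all 9 lower in reconstituted cells: Capn6, Radx, Bgn, Zmat1, Bhlhb9, Vegfd, Armcx5, Taf9b and Spry3. The median of the tested X-linked genes was -0.042. The share was higher on chromosomes 18 (2.91%), 6 (2.74%) and 13 (2.74%), where genes passed in both directions. The share on X is not read as a result about that chromosome.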
